A study of Mus musculus with 10 samples.

Results

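The complement components described here were chosen as 9 listed genes of the complement cascade (C1qa, C1qb, C1qc, C1s, C2, C3, C4b, Cfb and Cfd), each read on mouse whole-genome arrays by probe sets annotated to that gene alone. Of the 9 genes, 6 had such a probe set (10 probe sets in all), out of 18193 genes with a probe set of their own on the array. C4b was read only by a probe set that it shares with C4a, which is given beside the members as the shared C4 probe set and is not counted among them. C3 and Cfd were not analysed here, since no probe set was assigned to either of them alone in the annotation used. Where a gene had several probe sets, the one with the highest mean signal over the 10 arrays stood for it, and the others are given beside it.

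The tumors were 5 from mice given lovastatin (Lov; tumors A19, A48, A50, A55 and AB10) and 5 from mice given vehicle (Vhcl; A45, A49, A54, A59 and AB11), with 1 array per tumor. All mice were females of FVB/N-Tg(MMTVneu), here called Tg-neu, in which the MMTV promoter drives the neu oncogene in the mammary epithelium and tumors arise spontaneously; their ages were not given in the sources used here. Lov, an inhibitor of the rate-limiting enzyme of cholesterol synthesis, was injected intraperitoneally at 10 mg/kg, 3 times per week for 6 weeks, counted from the detection of the first tumor, and the Vhcl mice received ethanol on that schedule, although a description field of the control tumors calls them not treated. FVB mice carry a natural loss of the complement component encoded by Hc, and both groups share it. Each array held RNA of a whole tumor, so fewer cells of a type and less RNA per cell cannot be told apart in any value below. Each group comprised 5 mice by the labels, but no tumor is linked to a particular mouse, and p-values measure the spread between these tumors.

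Complement is a cascade of plasma and tissue proteins that tags surfaces for uptake by phagocytes, attracts leukocytes and can lyse cells. In the classical pathway, C1q binds antibody or altered surfaces. Of the proteases that it carries, C1r activates C1s, and C1s cleaves C4 and C2. The fragments form a convertase that cleaves C3. In the alternative pathway, factor B (Cfb) supplies the protease of a second convertase after factor D (Cfd) has cut it. Liver makes most of the plasma proteins, whereas C1q comes mainly from macrophages and immature dendritic cells, and epithelial cells and fibroblasts make several of the others during inflammation.

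The start-site regions of 3 of the 6 members were at hand (RefSeq, mouse build GRCm38.p6, 250 bases before to 50 after a start site). They are shown for a pair of C1q chain genes, whose signals varied together across the tumors, and for the protease gene C1s1, the annotated symbol for C1s. C1qb, C1qc and C1qa follow one another on chromosome 4. Capitals mark matches on either strand to GAGGAA, the core of sites bound by the myeloid factor PU.1, and to an NF-kB type site, read as GGGA, any 4 letters and CC. Each line gives the strand that carries the gene, 5′ to 3′.
C1qb, chr4:136886151-136886450, minus strand: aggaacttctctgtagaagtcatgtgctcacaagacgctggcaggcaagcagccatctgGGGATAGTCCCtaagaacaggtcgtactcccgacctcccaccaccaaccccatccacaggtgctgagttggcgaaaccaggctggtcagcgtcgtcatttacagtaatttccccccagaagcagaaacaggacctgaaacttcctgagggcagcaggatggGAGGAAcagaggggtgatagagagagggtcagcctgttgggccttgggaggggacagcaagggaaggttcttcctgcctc
C1qc, chr4:136892865-136893164, minus strand: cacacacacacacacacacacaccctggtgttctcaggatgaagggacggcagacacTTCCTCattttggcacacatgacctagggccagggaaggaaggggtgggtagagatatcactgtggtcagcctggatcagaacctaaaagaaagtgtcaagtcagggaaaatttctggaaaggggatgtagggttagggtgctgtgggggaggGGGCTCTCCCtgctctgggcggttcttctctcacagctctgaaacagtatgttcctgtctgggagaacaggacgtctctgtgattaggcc
C1s1, chr6:124542272-124542571, minus strand: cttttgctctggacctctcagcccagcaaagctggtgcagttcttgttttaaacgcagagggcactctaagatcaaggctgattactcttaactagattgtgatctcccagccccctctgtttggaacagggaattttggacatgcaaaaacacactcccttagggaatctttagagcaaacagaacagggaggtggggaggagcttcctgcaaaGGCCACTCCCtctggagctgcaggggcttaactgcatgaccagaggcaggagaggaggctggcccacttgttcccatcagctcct

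GAGGAA lay at position -30 from the start site of C1qb and, on the opposite strand, at -193 of C1qc. It was not in the C1s1 window, and 28.3% of the 32851 start-site regions of this length hold it. The NF-kB type site was found in all 3 windows, at -191 and -190 of C1qb (overlapping matches, 1 per strand), at -40 of C1qc and at -35 of C1s1, and in 20.7% of all regions. C1s1 has another start site, whose window is not shown, and counted from it the same match lay at position 4, after the start. No match to the MAF site TGCTGAC (4.67% of all regions), to the interferon-gamma activated site TTCNNNGAA (8.3%) or to the core of the interferon-stimulated response element, read as GAAA, any 2 letters and GAAA (3.44%), was in these windows. These matches describe letters, and no binding was measured.

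Values are log2 signals after Robust Multi-array Analysis (RMA), and differences are Lov minus Vhcl on that scale. Log2 signals compare tumors for 1 probe set and do not rank genes by RNA amount. The arrays had a median log2 signal of 4.99 to 5.05 in Lov-treated tumors and 4.97 to 5.02 in Vhcl-treated tumors, and Pearson's r between arrays was 0.969 to 0.990. The beta-actin 3′ minus 5′ signal, which grows as RNA degrades, was 0.67 to 1.07 in Lov-treated tumors and 0.80 to 1.35 in Vhcl-treated tumors. The markers of tumor epithelium (8 of 8 measured, Epcam and Krt18 among them) were above the median signal of the array in all tumors but for Krt19, which was below 5 in 7 of the 10. Transcripts of salivary gland, a neighbouring tissue, had a summed linear signal of 61 to 430 in Lov-treated tumors and 148 to 37809 in Vhcl-treated tumors, with the maximum in Vhcl AB11. All 5 of these markers had a negative difference (median -2.49), beside 47.3% of all probe sets. At an unadjusted p under 0.05, 2 (Dcpp1 and Prol1) were lower with Lov, beside 2.16% of all probe sets. Vhcl A59 carried salivary gland transcripts too, with Bpifa2 at 9.09, Amy1 at 6.90 and Dcpp1 at 10.54. Vhcl A49 had the highest Prol1 of all tumors (9.51) and Dcpp1 at 6.27, with Bpifa2 (3.27) and Amy1 (3.64) low. Dcpp1 was 8.04 in Vhcl A45, and Lov A19 had Prol1 at 7.55, Bpifa2 at 6.82 and Dcpp1 at 6.38. The part of these transcripts in the results below was not tested. With 5 arrays per group, the number of arrays sets the precision.

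None of the 6 members passed the test between the groups (limma's moderated test, Benjamini-Hochberg adjustment over 45037 probe sets; lowest adjusted p of a member's probe set = 0.939, lowest over all probe sets = 0.369). At an unadjusted p under 0.05, 0 of 6 members were lower and 0 higher with Lov, beside 2.16% of all probe sets lower and 3.13% higher. No member had groups that did not overlap, beside 0.602% of all probe sets. The log2 difference was negative for 2 of the 6 (C1qc and Cfb), beside 47.3% of all probe sets, with a median of 0.02, against 0.01 over all probe sets. The plot of the members by tumor shows the single values.

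**Figure D1:**
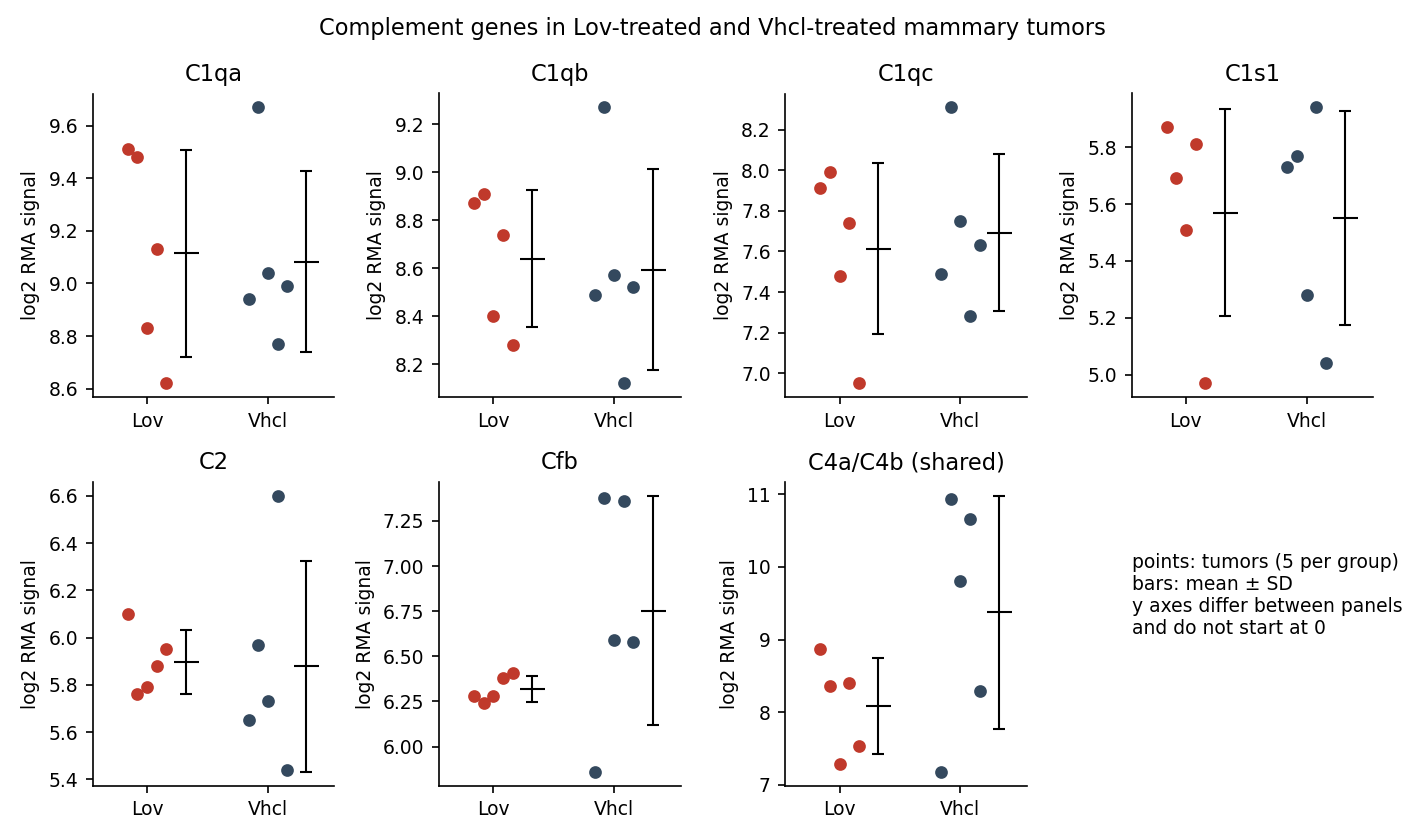
Log2 RMA signal (y axes, different in each panel and not starting at 0) of the 6 measured members and of the probe set shared by C4a and C4b, in 5 Lov-treated and 5 Vhcl-treated tumors (points), with mean ± SD beside them. The groups overlap in every panel, and the 5 Lov-treated tumors lie within 0.17 for Cfb, against 1.52 for the Vhcl-treated tumors.

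The 3 genes for the chains of C1q, the recognition molecule of the classical pathway, had nearly the same mean signals in both groups. C1qa (probe set 1417381_at) had 9.51, 9.48, 8.83, 9.13 and 8.62 in the Lov-treated tumors, in the order given above (A19 to AB10), against 8.94, 9.67, 9.04, 8.77 and 8.99 in the Vhcl-treated tumors (A45 to AB11). Lov A19 and A48 and Vhcl A49 were high, Lov AB10 was lowest, and the groups overlapped over most of their range. C1qa averaged 9.11 ± 0.39 in Lov-treated and 9.08 ± 0.34 in Vhcl-treated tumors (SD, n = 5 each), a difference of 0.03 (SE 0.21, 95% confidence interval -0.42 to 0.48; limma adjusted p = 0.998).

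C1qb (1417063_at) had 8.87, 8.91, 8.40, 8.74 and 8.28 in the Lov-treated tumors, in the same order, against 8.49, 9.27, 8.57, 8.12 and 8.52 in the Vhcl-treated tumors. The highest and the lowest tumor of all, A49 and A59, were both in the Vhcl group. The means were 8.64 ± 0.28 with Lov and 8.59 ± 0.42 with Vhcl (SD, n = 5 each), a difference of 0.05 (95% confidence interval -0.39 to 0.48; limma adjusted p = 0.998). C1qb had 2 further probe sets, both of a kind that can cross-hybridize with other transcripts (_x_at), with differences of -0.32 (1437726_x_at) and -0.12 (1434366_x_at). The first of these was lowest in Lov AB10 (7.10), and the other 4 of that group held 8.15 to 8.64.

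C1qc (1449401_at) had 7.91, 7.99, 7.48, 7.74 and 6.95 in the Lov-treated tumors, against 7.49, 8.31, 7.75, 7.28 and 7.63 in the Vhcl-treated tumors. Lov AB10 again had the lowest value and Vhcl A49 the highest. The means were 7.61 ± 0.42 with Lov and 7.69 ± 0.39 with Vhcl (SD, n = 5 each), a difference of -0.08 (95% confidence interval -0.57 to 0.41; limma adjusted p = 0.995). For each chain gene the interval leaves room for a difference in either direction.

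The signals of the chain genes varied together from tumor to tumor, as the plot of the C1q genes shows. Over the 10 tumors, C1qa correlated with C1qb (Pearson's r = 0.95, permutation p = 2e-05, adjusted p = 0.00021 over 21 pairs; Spearman's rho = 0.98, permutation p = 3e-05, adjusted p = 0.00028). Without Vhcl A49 and Lov A19, the tumors farthest from the median, r was 0.93, after subtraction of the group means it was 0.95, and among the 8 tumors with the ID prefix A it was 0.96. C1qa with C1qc gave r = 0.95 (permutation p = 2e-05, adjusted p = 0.00021) and rho = 0.98 (permutation p = 4e-05, adjusted p = 0.00028), with 0.94 left after the same 2 tumors were left out. C1qb with C1qc gave r = 0.93 (permutation p = 0.00021, adjusted p = 0.00147) and rho = 0.98 (permutation p = 2e-05, adjusted p = 0.00028), with 0.91 left without Vhcl A49 and A59. The log2 gap between C1qa and C1qb had an SD of 0.11 over the 10 tumors, while the genes themselves had SDs of 0.35 and 0.34, and the gap differed by -0.01 between Lov and Vhcl (2-sided exact permutation p = 0.857). The gaps of C1qa and of C1qb to C1qc differed by 0.11 and 0.12 between the groups (exact permutation p = 0.175 for both, adjusted p = 0.262 over 3 gaps).

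**Figure D2:**
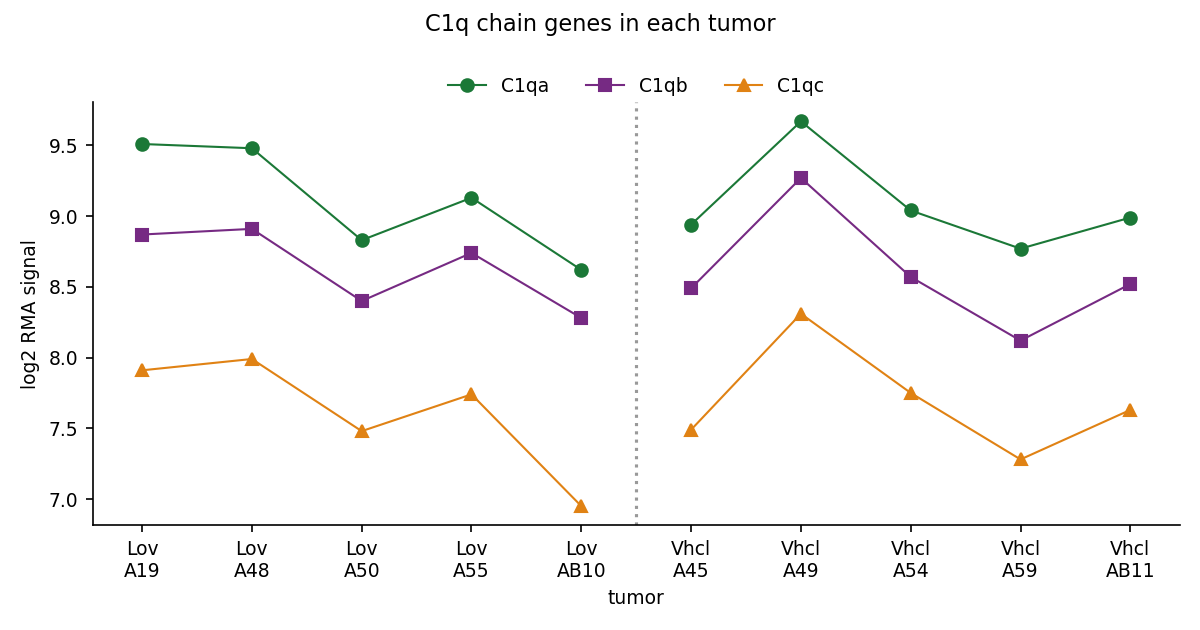
Log2 RMA signal (y axis) of C1qa, C1qb and C1qc in each of the 10 tumors (x axis), the Lov-treated tumors left of the dotted line and the Vhcl-treated tumors right of it. The lines join the tumors of a group only to guide the eye; the 3 genes are high together in Vhcl A49 and low together in Lov AB10.

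Markers of macrophages, the main source of C1q in tissue, were mixed between the groups. Of 12 listed markers 11 were measured, with a median difference of 0.04. At an unadjusted p under 0.05, 2 (Cd14 and Fcgr1) were lower and 2 (Csf1r and Cx3cr1) higher with Lov. Over all probe sets 2.16% were lower and 3.13% higher. The summed linear signal of the 11 markers was 2304 to 4011 in Lov-treated and 2653 to 4301 in Vhcl-treated tumors. Csf1r, the receptor for the macrophage growth factor, averaged 10.38 ± 0.33 with Lov and 9.95 ± 0.12 with Vhcl (SD, n = 5 each), a difference of 0.43 (limma adjusted p = 0.928). Cd14, a co-receptor for bacterial lipopolysaccharide, averaged 7.95 ± 0.54 with Lov and 9.33 ± 1.20 with Vhcl, a difference of -1.38 (limma adjusted p = 0.928). Lyz2, lysozyme of myeloid cells, differed by 0.04. Of the 11 markers, 4 correlated with C1qa at an adjusted permutation p of r under 0.05 (adjusted over 11 pairs, n = 10), and 1 (Aif1) by rho. Among the rest, r ran from 0.09 (Trem2) to 0.67 (Lyz2), and Csf1r, at 0.60, gave 0.79 within the groups. Mertk, a receptor for dying cells, gave r = 0.79 (permutation p = 0.00667, adjusted p = 0.0348) and rho = 0.78 (permutation p = 0.0107, adjusted p = 0.0591), and r = 0.68 without Vhcl A49 and Lov A19. Cd68 gave r = 0.77 (permutation p = 0.0057, adjusted p = 0.0348) and rho = 0.75 (permutation p = 0.0173, adjusted p = 0.0635), and r = 0.64 without these tumors. Aif1 gave r = 0.76 (permutation p = 0.00948, adjusted p = 0.0348) and rho = 0.86 (permutation p = 0.00278, adjusted p = 0.0306), and r = 0.82 without them. Fcgr1, a receptor for antibody, gave r = 0.72 (permutation p = 0.0162, adjusted p = 0.0447) and rho = 0.71 (permutation p = 0.0272, adjusted p = 0.0747), and r was 0.39 without those tumors. Within the groups, r was 0.80 for Mertk, 0.86 for Cd68, 0.77 for Aif1 and 0.95 for Fcgr1. Without Vhcl A49 and Lov A19 the within-group r of Fcgr1 was 0.94. The log2 difference of Fcgr1 was -0.34, with groups that overlapped (limma adjusted p = 0.932, exact permutation p = 0.0714). The part of these markers in the C1q values was not tested.

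C1s1, which encodes the protease C1s, had 5.87, 5.69, 5.51, 5.81 and 4.97 in the Lov-treated tumors, against 5.73, 5.77, 5.28, 5.94 and 5.04 in the Vhcl-treated tumors (1424041_s_at, a kind of probe set that can read several related transcripts). The lowest value of each group was in its tumor with the ID prefix AB (Lov AB10 and Vhcl AB11), and the other tumors overlapped. The means were 5.57 ± 0.36 with Lov and 5.55 ± 0.38 with Vhcl (SD, n = 5 each), a difference of 0.02 (95% confidence interval -0.43 to 0.47; limma adjusted p = 0.998). C1s1 correlated with C1qa at r = 0.48 (permutation p = 0.166, adjusted p = 0.435) and rho = 0.36 (permutation p = 0.313, adjusted p = 0.548), and r was 0.32 without Vhcl A49 and Lov A19.

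C2, the protease subunit of the classical convertase, was read by 3 probe sets that gave different pictures. The main one (1441912_x_at) had 6.10, 5.76, 5.79, 5.88 and 5.95 in the Lov-treated tumors, against 5.65, 5.97, 5.73, 6.60 and 5.44 in the Vhcl-treated tumors. The Lov-treated tumors lay inside the range of the Vhcl-treated ones, among which A59 was high. The difference was 0.02 (95% confidence interval -0.39 to 0.43; limma adjusted p = 0.998). The only C2 probe set whose name does not mark it as shared, 1416051_at, had 4.82, 3.88, 4.36, 4.09 and 4.21 in the Lov-treated tumors, against 4.59, 4.71, 4.75, 5.43 and 4.27 in the Vhcl-treated tumors. Lov A19 was above 4 of the 5 Vhcl-treated tumors, and the other 4 Lov-treated tumors were at or below 4.36. It averaged 4.27 ± 0.35 with Lov and 4.75 ± 0.42 with Vhcl (SD, n = 5 each), a difference of -0.48 (95% confidence interval -0.95 to -0.0042; limma p = 0.0483, adjusted p = 0.939; exact permutation p = 0.103). This was the only 1 of the 10 probe sets of the members at an unadjusted p under 0.05, beside 5.28% of all probe sets in either direction. The mean signal of 1416051_at was below the median of an array. The third probe set, 1457664_x_at, differed by -0.28, and it too was highest in Vhcl A59 (6.11). The plot of the C2 probe sets shows A59 at the top of the Vhcl group in each of them.

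**Figure D3:**
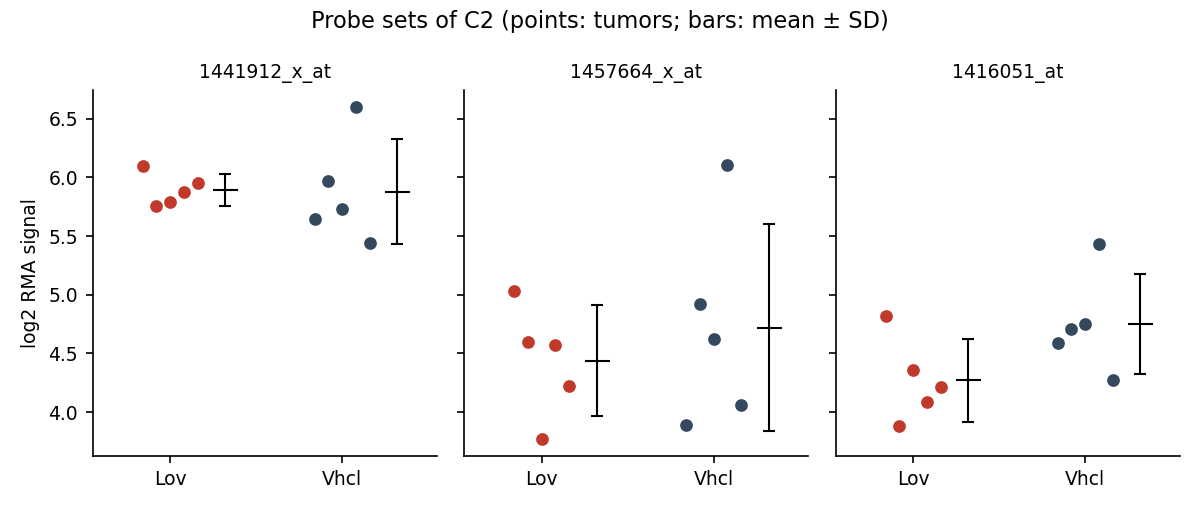
Log2 RMA signal (y axis, not starting at 0) of the 3 probe sets of C2 in 5 Lov-treated and 5 Vhcl-treated tumors (points), with mean ± SD. The group means nearly coincide for 1441912_x_at (difference 0.02) and lie apart for 1416051_at (difference -0.48).

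Cfb, whose gene lies near that of C2 on chromosome 17, was the member with the largest log2 difference of a main probe set. Cfb (1417314_at) had 6.28, 6.24, 6.28, 6.38 and 6.41 in the Lov-treated tumors, against 5.86, 7.38, 6.59, 7.36 and 6.58 in the Vhcl-treated tumors. The Lov-treated tumors lay close together, 4 Vhcl-treated tumors were above all of them, and Vhcl A45 was below all of them. The range was 0.17 with Lov and 1.52 with Vhcl, which is 1.13-fold and 2.87-fold on the linear scale. The means were 6.32 ± 0.07 with Lov and 6.75 ± 0.64 with Vhcl (SD, n = 5 each), a difference of -0.44 (SE 0.25, 95% confidence interval -0.98 to 0.11; limma adjusted p = 0.971; exact permutation p = 0.23). Without Vhcl A45 the difference was -0.66 (past an unadjusted p of 0.05, limma adjusted p = 0.874). It was -0.28 without Vhcl A49 and also without Vhcl A59. Of the salivary gland markers, Dcpp1 was 8.04 in Vhcl A45, 6.27 in Vhcl A49 and 10.54 in Vhcl A59. Amy1 was 3.22, 3.64 and 6.90 in these tumors, in that order. Vhcl AB11, with Dcpp1 at 10.68 and Amy1 at 13.34, had Cfb at 6.58. The part of these transcripts in the Cfb values was not tested. Whether the spread itself differed between the groups was not tested.

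The probe set shared by C4a and C4b (1418021_at), which read the C4 protein that C1s cleaves and its close relative, had 8.87, 8.36, 7.29, 8.40 and 7.53 in the Lov-treated tumors. It had 7.18, 10.94, 9.81, 10.66 and 8.29 in the Vhcl-treated tumors. Vhcl A49, A54 and A59 were above every Lov-treated tumor, and Vhcl A45 was the lowest of all 10. The range was 1.58 with Lov (2.99-fold) and 3.76 with Vhcl (13.5-fold). The means were 8.09 ± 0.66 with Lov and 9.38 ± 1.60 with Vhcl (SD, n = 5 each), a difference of -1.29, or 2.44-fold lower with Lov (95% confidence interval -2.70 to 0.13; limma adjusted p = 0.961; exact permutation p = 0.167). The difference was -1.83 without Vhcl A45 (limma adjusted p = 0.874), -1.56 without Vhcl AB11 (limma adjusted p = 0.68), -0.96 without Vhcl A59 and -0.89 without Vhcl A49. With the beta-actin 3′ minus 5′ difference in the model it was -0.89, and that of Cfb was -0.31. The values without A45 and without AB11 were past an unadjusted p of 0.05. Transcripts of C4a and C4b cannot be told apart on this probe set.

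Cfb and the shared C4 probe set were high in the same Vhcl-treated tumors. Their correlation over the 10 tumors was r = 0.89 (permutation p = 0.00095, adjusted p = 0.00499 over 21 pairs) and rho = 0.74 (permutation p = 0.0184, adjusted p = 0.0969). Without Vhcl A49 and A59, r was 0.61, so the relation rests in large part on those tumors. After subtraction of the group means r was 0.85, and among tumors with the ID prefix A it was 0.93. Cfb had a range of only 0.17 in the Lov-treated tumors, so these values rest mainly on the Vhcl-treated tumors. Lov AB10 had the highest Cfb of its group (6.41) with the shared C4 probe set at 7.53. Lov A19 had the highest C4 signal of that group (8.87) with Cfb at 6.28. The relation within the Lov group alone was not tested. C2 correlated with Cfb at r = 0.58 (permutation p = 0.0843, adjusted p = 0.286) and rho = 0.36 (permutation p = 0.308, adjusted p = 0.548), and r was 0.43 without Vhcl A59 and AB11. Of the 21 pairs, 4 had an adjusted p of r under 0.05, the 3 pairs of C1q genes and this one.

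**Figure D4:**
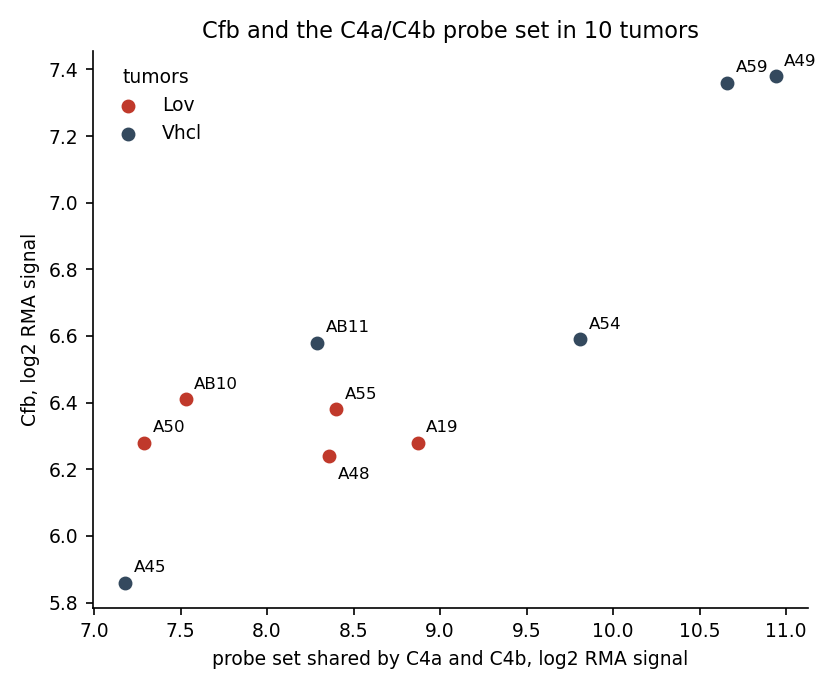
Log2 RMA signal of Cfb (y axis) against that of the probe set shared by C4a and C4b (x axis) in 10 tumors (points, named), Lov-treated in red and Vhcl-treated in dark grey; neither axis starts at 0. Vhcl A49 and A59 are high on both axes, Vhcl A45 is low on both, and the Lov-treated tumors span 1.58 on the x axis and 0.17 on the y axis.

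Acute-phase genes, which inflammation induces in liver and epithelium, are given beside Cfb and C4. All 8 listed were measured, and the difference of every one was negative (median -0.52), beside 47.3% of all probe sets. At an unadjusted p under 0.05, 3 of them were lower with Lov, beside 2.16% of all probe sets, against 0 after adjustment. Saa1, a serum amyloid A gene, had 4.31, 4.05, 4.14, 3.82 and 3.64 in the Lov-treated tumors, against 4.18, 10.01, 6.44, 7.01 and 3.99 in the Vhcl-treated tumors. Lbp, which hands lipopolysaccharide to Cd14, had 10.68, 10.63, 10.85, 10.79 and 10.36 in the Lov-treated tumors, against 10.25, 12.20, 11.08, 11.59 and 10.44 in the Vhcl-treated tumors. Both had their highest values in Vhcl A49, A54 and A59, as the shared C4 probe set did, and so had Saa2, Saa3 and Lcn2. The other acute-phase genes did not follow this order. Hp was 5.17 in Vhcl A49 and 6.02 in A45, Serpina3n 8.23 in A49 and 8.57 in A45, and Orm1 3.21 in A49 and 3.28 in AB11. Of 12 listed inducers and transcription factors known to act on complement genes 10 were measured, with a median difference of -0.06. At an unadjusted p under 0.05, 2 of them were lower with Lov and 0 higher, beside 2.16% and 3.13% of all probe sets. The difference was negative for 7 of the 10, beside 47.3% of all probe sets, and positive for Ifng (0.12), Il1b (0.11) and Tnf (0.10). Cebpd, a transcription factor of the acute-phase response, averaged 7.83 ± 0.76 with Lov and 9.27 ± 0.55 with Vhcl (SD, n = 5 each), a difference of -1.44 (limma adjusted p = 0.919; exact permutation p = 0.0159). Irf7, a transcription factor of the interferon response, averaged 8.16 ± 0.29 with Lov and 8.99 ± 0.50 with Vhcl, a difference of -0.83 (limma adjusted p = 0.919; exact permutation p = 0.0317). Cebpb, Stat3 and Rela, which had the highest mean signals of the inducers and transcription factors, differed by -0.17, -0.42 and -0.08. Il6 was near 2.75 in both groups, among the lowest signals. The part of these genes in the values of Cfb and C4 was not tested. Hepatocyte markers, a sign of liver RNA, had Alb at 3.94 ± 0.21 with Lov and 4.04 ± 0.17 with Vhcl, Ttr at 5.46 ± 0.24 with Lov and 5.43 ± 0.06 with Vhcl, and a summed linear signal over 5 markers of 129 to 173 with Lov and 120 to 154 with Vhcl.

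Of 38 further complement genes 33 were measured, and none passed the test after adjustment. At an unadjusted p under 0.05, 2 (Masp1 and Itgam) were lower with Lov (beside 2.16% of all probe sets) and 1 (Cd55) higher (3.13%). A negative difference was held by 18 genes, beside 47.3% of all probe sets, and the median was -0.02. No gene had groups that did not overlap, beside 0.602% of all probe sets. Among recognition molecules and proteases, 6 of 8 measured had a negative difference (median -0.08). Masp1, a protease of the lectin pathway, averaged 5.18 ± 0.38 with Lov and 5.90 ± 0.75 with Vhcl (SD, n = 5 each), a difference of -0.72 (limma p = 0.0453, adjusted p = 0.933; exact permutation p = 0.0714). Its 4 other probe sets differed by -0.51 to -0.04, and the one of highest signal not marked as shared by -0.27. An unadjusted p under 0.05 was kept in 3 of 10 fits that left out a tumor, where the difference ran from -0.92 (without Vhcl AB11) to -0.48 (without Vhcl A49). C1ra, the protease that activates C1s, differed by -0.27 (limma adjusted p = 0.979).

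Among genes of the alternative and terminal pathways, 1 of 7 measured had a negative difference (median 0.12) and 0 passed an unadjusted p of 0.05. Cfp, properdin, which stabilizes the alternative convertase, averaged 6.21 ± 0.27 with Lov and 6.09 ± 0.51 with Vhcl, and C8g, a subunit of the lytic complex, 4.95 ± 0.16 with Lov and 5.19 ± 0.41 with Vhcl. Among soluble inhibitors, 3 of 5 had a negative difference (median -0.08). Serping1, the C1 inhibitor, averaged 7.38 ± 0.75 with Lov and 7.64 ± 0.50 with Vhcl, a difference of -0.26 (limma adjusted p = 0.988) that ran from -0.52 without Lov A19 to -0.03 without Lov A50. Clu, clusterin, which blocks assembly of the lytic complex, averaged 12.19 ± 0.26 with Lov and 12.27 ± 0.62 with Vhcl.

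Membrane inhibitors protect host cells from complement. Cd55, which speeds the decay of the convertases, had 7.40, 7.94, 8.01, 7.95 and 7.33 in the Lov-treated tumors, against 6.40, 7.43, 7.46, 6.89 and 7.70 in the Vhcl-treated tumors (1460242_at). Vhcl A45 and A59 were below all Lov-treated tumors, and Vhcl A49, A54 and AB11 lay among them. The difference was 0.55 (SE 0.24; limma p = 0.0423, adjusted p = 0.932; exact permutation p = 0.0794), and its other probe sets differed by 0.62 and 0.75. Without Vhcl A45 the difference of the main probe set was 0.36 (limma adjusted p = 0.936) and was no longer past an unadjusted p of 0.05, which was kept in 5 of 10 fits that left out a tumor; without Vhcl AB11 it was 0.68. Cd59a, which blocks the last step of lysis, averaged 9.27 ± 0.09 with Lov and 9.25 ± 0.21 with Vhcl, and Cr1l, the rodent regulator also known as Crry, 9.36 ± 0.11 with Lov and 9.22 ± 0.27 with Vhcl. Of the 5 membrane inhibitors measured, 2 had a negative difference.

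Of 8 receptors measured, 6 had a negative difference (median -0.18). Itgam, the alpha chain of complement receptor 3 and a myeloid marker, averaged 3.51 ± 0.11 with Lov and 3.84 ± 0.26 with Vhcl (SD, n = 5 each), a difference of -0.34 (limma p = 0.0203, adjusted p = 0.928; exact permutation p = 0.0397), at signals below the median of an array; an unadjusted p under 0.05 was kept in 8 of 10 fits that left out a tumor. C3ar1, the receptor for an anaphylatoxin, differed by -0.18, and Cd93, a membrane protein of endothelium once taken for a C1q receptor, by 0.16. The plot of all differences shows that the interval of the shared C4 probe set is wider than those of the other genes drawn.

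**Figure D5:**
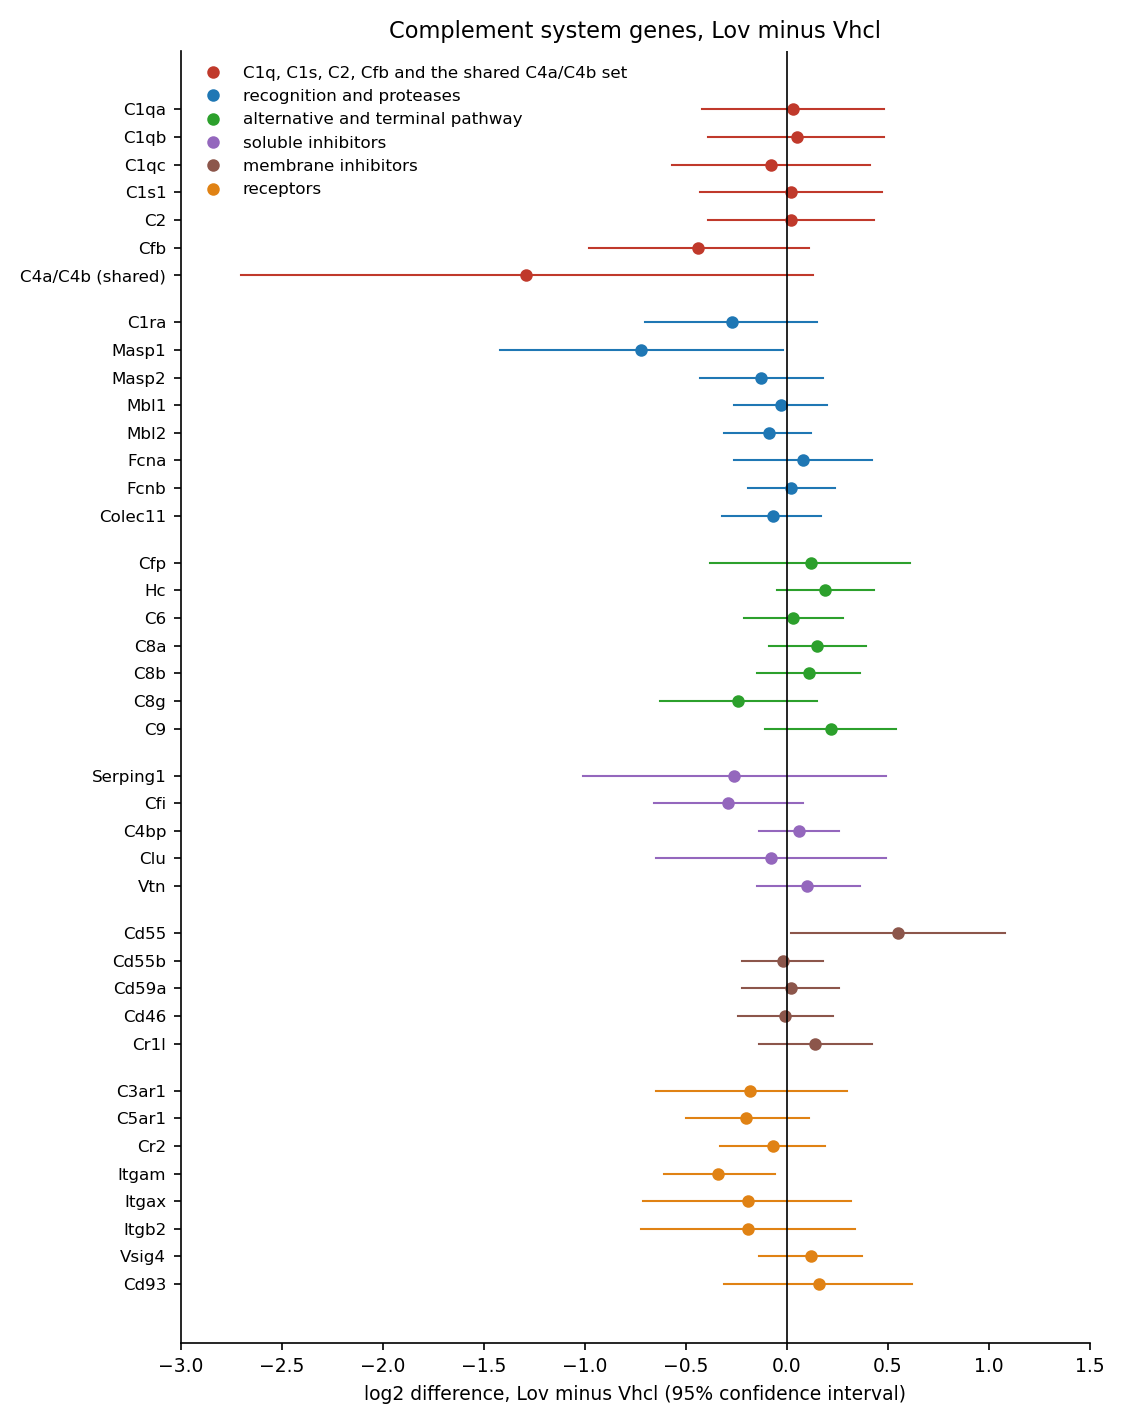
Log2 difference, Lov minus Vhcl (x axis, points), with its 95% confidence interval (lines) for the 6 members, the shared C4 probe set and 33 other complement genes (y axis), coloured by role. The intervals of Masp1, Itgam and Cd55 leave out 0 before adjustment; that of the shared C4 probe set runs from -2.70 to 0.13.

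The marker sums of other cells that the tumors could hold overlapped between the groups. Fibroblast markers had 4 of 8 negative differences and a summed linear signal of 759 to 3427 with Lov and 1319 to 3308 with Vhcl, and adipocyte markers 7 of 9 negative with sums of 709 to 1976 with Lov and 885 to 3256 with Vhcl, Fabp4 being lower by its unadjusted p (difference -0.86). Tumor epithelium markers had 7 of 8 negative differences with sums of 15586 to 20714 with Lov and 17129 to 22689 with Vhcl. Neutrophil markers overlapped as well (sums of 54 to 85 with Lov and 64 to 96 with Vhcl), S100a9 being lower by its unadjusted p (difference -0.33). Endothelial markers had a median difference of 0.05, those of T cells 0.04 (Cd3g higher by its unadjusted p, difference 0.51) and those of B and plasma cells -0.20. No marker passed the test after adjustment.

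The genes with the pattern most like each member were sought among 11521 genes whose mean signal exceeded the median of all probe sets, by Pearson's r over the 10 tumors, as a description. All values share the same 10 arrays. For C1qa they were C1qb (0.95), C1qc (0.95) and Otulinl (0.93), and for C1qb they were C1qa (0.95), Abcg1 (0.95) and Tsacc (0.94). For C1qc they were Abcg1 (0.97), a cholesterol exporter of macrophages, C1qa (0.95) and Axl (0.94), a receptor tyrosine kinase for dying cells. After subtraction of the group means Abcg1 still gave 0.98 with C1qc. For C1s1 they were Tubgcp3 (0.94), Top1 (0.92) and Hus1 (0.92), and for C2 Mir22hg, Ssbp1 and Haus6 (0.89 each). For Cfb they were Fads1, a fatty acid desaturase, Basp1 and Slc1a4, an amino acid transporter (0.94 each). For the shared C4 probe set they were Rassf4 (0.99), Nfe2l3 (0.96) and Slc41a2 (0.95). No gene was in the lists of both Cfb and the shared C4 probe set.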

How the data were processed

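RNA of 10 mouse mammary tumors, 5 Lov-treated and 5 Vhcl-treated, was measured on 1 Affymetrix array per tumor. The authors summarized and normalized the intensities by RMA with the affy package, per the submitters' processing notes (versions not given in the sources used here), and deposited log2 signals with 2 decimals. No further scaling was applied here and no column was left unused. Arrays have no sequencing depth.

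Groups and doses came from the labels. The groups were compared using limma 3.58.1 under R 4.3.3 (empirical Bayes moderation of a linear model, prior degrees of freedom 3.61), 2-sided, with Benjamini-Hochberg adjustment over 45037 probe sets; 64 control probe sets were left out. The platform annotation gave 1 gene symbol for 34945 of them, several for 932 and none for 9160. A call needed an adjusted p under 0.05, and unadjusted p-values are given as descriptions. Exact permutation tests enumerated all 252 assignments of the tumors to the groups, so that the smallest possible p is 0.00794. Correlations used 100000 permutations. The model was tested on simulated data. Start-site regions and gene order came from RefSeq (GRCm38.p6).

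The members, gene lists and alternatives were chosen with earlier results of these data known. Single genes were named by rule: all members; of other complement genes those at an unadjusted p under 0.05, those without overlap and the 2 of highest mean signal in each role; the 3 genes most like each member; and of each marker list those with the highest signals. Marker genes with named values outside that rule (Saa1, Cebpd, Irf7, Il6 and others) were chosen after their values were seen. The marker part of the rule was not applied in full, since Col3a1, Lcn2 and others of high signal have no values given. The alternatives were another prior, array weights, Student's t-test (named in the methods for 2 groups), centred or quantile-normalized arrays, the tumor ID prefix as a covariate or a filter, other choices of probe set, and leaving out tumors. A covariate for RNA quality, the 3′ minus 5′ difference of beta-actin, was chosen after seeing the data. No values of C3 and Cfd are given.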

Additional observations from a re-analysis of the deposited data

How the results depend on the processing

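No member was called at an adjusted p under 0.05 in any of 22 alternatives, and Cfb (lowest adjusted p = 0.797) and the shared C4 probe set (0.578) kept a negative log2 difference in all of them. Differences near 0 changed sign. With array weights C1qc was 0.02, and after quantile normalization C1s1 was -0.02. With the 8 tumors of prefix A, C1qc was 0.07, C2 -0.10, Cfp -0.04, Cd59a -0.02 and C3ar1 0.06. With every probe set of a gene averaged, C1qb was -0.13, C2 -0.25, Cfp -0.01 and Cd59a -0.04, and with probe sets not marked as shared C2 was -0.48. Without Lov A19 and Vhcl AB11, C1qa was -0.09, C1qb -0.03, C1s1 -0.18, C2 -0.14, Cfp -0.12 and Cd59a -0.01. The shared C4 probe set was then -1.75, Masp1 -1.09 and Serping1 -0.68, all past an unadjusted p of 0.05 (limma adjusted p = 0.578, 0.317 and 0.587). In that fit 3 other complement genes in place of 2 were lower at that p, Masp1 and Serping1 among them, while Itgam (-0.32) was no longer past it. With the beta-actin difference (3′ minus 5′) added to the model, an alternative chosen after seeing the data, C1qa was -0.06, C1qb -0.09, C1s1 -0.03 and Clu 0.04. The same model gave -0.89 for the shared C4 probe set, -0.31 for Cfb, -0.06 for Serping1 and -0.42 for C8g, the last past an unadjusted p of 0.05 (limma adjusted p = 0.774), while Masp1 (-0.69) and Cd55 (0.46) were no longer past it. The causes were not tested.

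At an unadjusted p under 0.05, the members lower in Lov-treated tumors numbered 1 (C2) with probe sets not marked as shared, against 0, and Student's t-test gave 0 lower and 0 higher. The other complement genes that were lower numbered 1 in place of 2 under Student's t-test, with prefix A, with probe sets not marked as shared and with those above the median signal; Masp1 was the gene lost under the t-test and the probe set choice. Those that were higher numbered 0 in place of 1 under Student's t-test, with centred arrays, with the prefix as a covariate and with the beta-actin covariate.

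Leaving out 1 tumor at a time gave 0 to 1 members lower (1, Cfb, without Vhcl A45), 0 to 3 other complement genes lower and 0 to 1 higher. The differences ran from -0.07 (without Lov A19) to 0.18 (without Vhcl A49) for C1qa, from -0.07 (Vhcl A59) to 0.22 (Vhcl A49) for C1qb, from -0.18 (Vhcl A59) to 0.09 (Lov AB10) for C1qc, from -0.11 (Vhcl AB11) to 0.17 (Lov AB10) for C1s1 and from -0.09 (Vhcl AB11) to 0.20 (Vhcl A59) for C2. They ran from -0.08 to 0.27 for Cfp, -0.31 to 0.09 for Clu, -0.04 to 0.11 for Cd59a, -0.31 to 0.01 for C3ar1 and -0.04 to 0.26 for Cd93. Cfb ran from -0.66 to -0.28, the shared C4 probe set from -1.83 to -0.89, Masp1 from -0.92 to -0.48, Serping1 from -0.52 to -0.03, C1ra from -0.36 to -0.14 and C8g from -0.37 (without Vhcl A59, past an unadjusted p of 0.05) to -0.14. No value was had for C1s1, C8g and Clu with probe sets not marked as shared, or for Itgam above the median signal. No paired analysis was possible because the labels give no replicate numbers that the groups share.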
